A study of Mus musculus with 8 samples.

Results

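The distribution of 5-hydroxymethylcytosine (5hmC) over protein-coding genes was compared between mouse embryonic stem cells (ESCs) and mouse embryonic fibroblasts (MEFs). These are 2 of the 8 libraries of the series, and every peak on the nuclear chromosomes with a deposited score of at least 80 was kept in both. The score comes from the peak caller and was read here as -10 × log10 of the p-value of the peak. This left 171865 peaks in ESCs, all that were listed there, and 74068 of 217025 in MEFs (34.1%). The MEF list went down to a score of 30, with 1169 peaks between 80 and 81 that were kept and 1258 between 79 and 80 that were not, the highest of them at 79.98.

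The ESCs were of the E14 line and had not been transfected. The MEFs came from C57BL/6 embryos, of embryonic day 11 by the sample labels and of a later day by the methods, and were grown as primary cultures. Values from other 5hmC libraries are given beside the genes: E14 ESCs transfected with a hairpin against GFP (shGFP), and brain and liver of C57BL/6 mice aged 8 weeks. The methods describe 3 days of selection with 1 µg/ml puromycin for hairpins against Suz12 and do not describe the shGFP cells separately. Each cell type had 1 library, so there was no spread between replicates, no difference was tested, and differences between the libraries cannot be told apart from differences between the cell types. Peak lists hold no RNA level, so the labelled cell types could not be checked by the expression of their markers.

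5hmC is made from 5-methylcytosine by the Tet dioxygenases, which act mainly on CpG dinucleotides. It can be a step towards removal of DNA methylation or stay in the genome as a mark of its own, and it is known for lying in gene bodies, exons and enhancers and for being scarce at the CpG-rich start sites of active genes. ESCs express Tet1 and Tet2 strongly, whereas fibroblasts in culture have little 5hmC in total. The peaks give where a library was enriched, and not how much 5hmC the cells held.

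Below are 200 bp of the mm9 assembly for regions of some of the genes named in this report, 5′ to 3′, with CpG dinucleotides in capitals. The first set holds the centres of intronic peaks that were found in ESCs and had no MEF peak over them.
Hsdl1, chr8:122096304-122096503, plus strand: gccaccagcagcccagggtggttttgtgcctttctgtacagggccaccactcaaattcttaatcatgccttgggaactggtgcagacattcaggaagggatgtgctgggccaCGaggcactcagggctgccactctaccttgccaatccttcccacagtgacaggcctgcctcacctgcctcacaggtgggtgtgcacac
Ncln, chr10:80954990-80955189, plus strand: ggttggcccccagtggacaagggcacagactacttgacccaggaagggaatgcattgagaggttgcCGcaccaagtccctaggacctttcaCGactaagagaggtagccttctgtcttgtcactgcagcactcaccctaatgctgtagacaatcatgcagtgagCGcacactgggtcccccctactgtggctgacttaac
Hmha1, chr10:79481492-79481691, plus strand: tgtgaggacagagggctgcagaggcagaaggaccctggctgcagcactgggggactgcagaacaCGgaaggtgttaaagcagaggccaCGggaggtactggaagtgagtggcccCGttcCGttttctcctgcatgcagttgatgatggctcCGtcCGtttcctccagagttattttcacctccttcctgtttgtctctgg
The second set holds the centres of intronic peaks that were found in MEFs and had no ESC peak over them.
Thbs1, chr2:117942473-117942672, plus strand: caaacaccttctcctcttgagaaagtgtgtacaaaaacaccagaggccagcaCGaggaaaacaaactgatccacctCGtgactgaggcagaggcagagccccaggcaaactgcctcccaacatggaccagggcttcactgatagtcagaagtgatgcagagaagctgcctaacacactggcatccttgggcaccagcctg
Csrp2, chr10:110368752-110368951, plus strand: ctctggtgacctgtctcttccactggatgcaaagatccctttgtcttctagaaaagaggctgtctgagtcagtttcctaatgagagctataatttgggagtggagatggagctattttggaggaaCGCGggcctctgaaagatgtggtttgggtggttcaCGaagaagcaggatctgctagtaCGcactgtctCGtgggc
The last set is the 200 bp before the transcription start site (TSS), on the strand of the gene. Ddx4 and Sycp3 are germline genes whose start was covered in ESCs, and Ankrd1 and Adam12 had a start that was covered in MEFs.
Ddx4, chr13:113442519-113442718, minus strand: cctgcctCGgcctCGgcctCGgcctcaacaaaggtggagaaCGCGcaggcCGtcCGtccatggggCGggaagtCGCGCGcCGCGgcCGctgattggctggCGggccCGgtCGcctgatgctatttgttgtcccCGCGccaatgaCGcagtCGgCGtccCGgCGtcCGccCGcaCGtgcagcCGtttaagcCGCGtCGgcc
Sycp3, chr10:87922114-87922313, plus strand: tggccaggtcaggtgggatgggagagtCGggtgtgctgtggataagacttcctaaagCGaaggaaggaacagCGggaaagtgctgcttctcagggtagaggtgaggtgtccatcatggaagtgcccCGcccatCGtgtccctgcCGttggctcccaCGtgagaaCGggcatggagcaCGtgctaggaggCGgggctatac
Ankrd1, chr19:36194335-36194534, minus strand: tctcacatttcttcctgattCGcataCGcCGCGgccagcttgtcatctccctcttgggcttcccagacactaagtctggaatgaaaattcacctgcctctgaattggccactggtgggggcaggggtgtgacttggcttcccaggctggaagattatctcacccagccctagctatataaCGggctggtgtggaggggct
Adam12, chr7:141423830-141424029, minus strand: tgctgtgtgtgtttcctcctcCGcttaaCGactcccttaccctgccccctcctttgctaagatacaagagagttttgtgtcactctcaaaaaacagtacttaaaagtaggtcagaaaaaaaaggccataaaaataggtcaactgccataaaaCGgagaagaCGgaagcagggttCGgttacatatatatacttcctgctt
The Ddx4 stretch held 31 CpGs and the Sycp3 stretch 10, against 5 in Ankrd1 and 5 in Adam12. In the peak centres there were between 1 (Hsdl1) and 6 (Hmha1) CpGs in 200 bp.

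Over genes, ESCs had the wider 5hmC. For each of the 13506 protein-coding genes with a span of at least 10 kb (of 22367 in all), the percent of the span under peaks was computed. The median gene was covered over 11.2% of its span in ESCs (quartiles 2.23 and 27.8%) and over 1.41% in MEFs (quartiles 0 and 7.99%). No peak lay in 2263 genes in ESCs (16.8%) and in 6112 genes in MEFs (45.3%). The difference, ESC minus MEF, ran from -52.9 to 89.2 percentage points with a median of 6.01. It was above 0 in 9651 genes, below 0 in 1861 and exactly 0 in 1994. A difference of at least 10 points was counted as a call. By that rule 5494 genes (40.7%) were more covered in ESCs and 319 (2.36%) in MEFs.

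The extent of the lists bears on these counts. ESC peaks covered 179 Mb and MEF peaks of the same minimum score 102 Mb, a ratio of 1.75, and the median peak was 844 bp wide in ESCs and 1226 bp in MEFs. The MEF list reaches down to a score of 30, however, and the whole of it covered 208 Mb, so that the ratio turned to 0.862. Taking the ESC peaks from the highest score down until they covered as many bp as the MEF peaks left 69400 ESC peaks, with scores of at least 217.68. The median difference was then 0, with 6411 genes more covered in ESCs and 3682 in MEFs. The calls were 3231 genes (23.9%) for ESCs and 764 (5.66%) for MEFs. Of the 5494 ESC calls 58.8% remained and 16 genes changed sides, whereas the 319 MEF calls remained by construction, since this setting only takes ESC peaks away. Calls at equal bp covered are therefore given beside those of the gene groups.

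**Figure D1:**
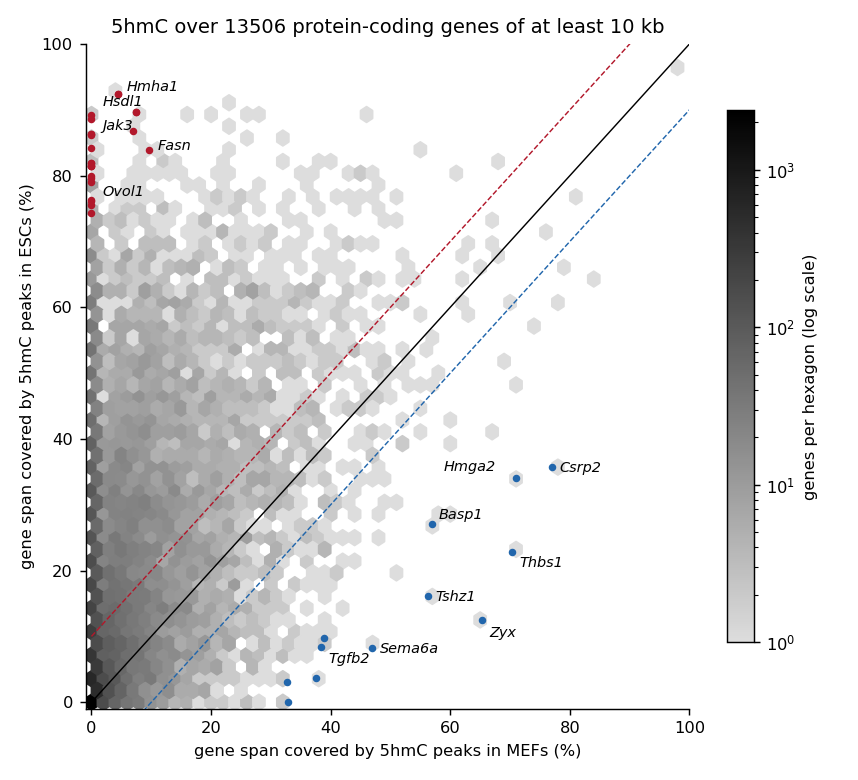
Percent of the gene span under 5hmC peaks in MEFs (x axis) and ESCs (y axis) for 13506 genes of at least 10 kb, with genes per hexagon on a log grey scale; the solid line marks equal coverage, the dashed lines a difference of 10 points, and coloured points the named genes (red more covered in ESCs, blue in MEFs). Most genes lie along the left edge, where MEFs have little or no coverage, and the MEF-higher genes are few.

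Peaks covered most of the span of the genes with the largest difference towards ESCs. Hsdl1, a hydroxysteroid dehydrogenase-like gene on chromosome 8, was covered over 89.2% of its span in ESCs, 0% in MEFs, 59.0% in shGFP, 36.9% in brain and 26.2% in liver. Its coverage in ESCs came from 5 peaks with scores of up to 2613.02. Jak3, a tyrosine kinase of cytokine receptors, stood at 88.6% in ESCs, 0% in MEFs, 85.4% in shGFP, 0% in brain and 49.0% in liver. Both genes had no MEF peak in the span, while the second ESC library, shGFP, covered 59.0% or more of each.

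Hmha1, a minor histocompatibility antigen gene, followed with 92.3% in ESCs, 4.39% in MEFs and 60.9% in shGFP. Ncln, which encodes the endoplasmic reticulum protein nicalin, had 86.3% in ESCs, 0% in MEFs and 36.9% in shGFP. Next came the PDZ adaptor gene Gipc1 (86.1, 0 and 52.8% in ESCs, MEFs and shGFP) and Osgin1, a gene of the oxidative stress response (84.2, 0 and 63.5%). The remaining genes of this group were Abhd16a (a phospholipase), Sart3 (a factor that recycles spliceosomal RNPs), Abca2 (a lipid transporter), Ndrg4, the formin Fhod1 and the adhesion receptor gene Lphn1. Their coverage was between 79.9 and 89.7% in ESCs and between 0 and 7.42% in MEFs. In shGFP it ran from 21.0% in Abca2 to 54.7% in Fhod1, so that each was covered more in shGFP than in MEFs as well. Fhod1 and Lphn1 share part of their span with another gene, and a peak there counts for both genes.

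Of these 12 genes 7 lie on chromosome 8: Hsdl1, Jak3, Gipc1, Osgin1, Ndrg4, Fhod1 and Lphn1. With chromosome 8 left out the group of 12 took in Thop1, Fam83h, Ovol1, Pygm, Nckipsd, Xrcc3 and Fasn. Ovol1, a transcription factor of epithelial cells, was covered over 76.3% in ESCs, 0% in MEFs, 46.7% in shGFP and 0% in both brain and liver. Fasn, the fatty acid synthase gene, had 83.9% in ESCs, 9.60% in MEFs, 45.4% in shGFP, 59.9% in brain and 84.0% in liver. Pygm, the muscle glycogen phosphorylase gene, had 76.2% in ESCs, 0% in MEFs and 32.4% in shGFP, and Xrcc3, a gene of recombinational repair, 74.3, 0 and 29.5%. Among these genes Ovol1 was covered in the ESC libraries and in neither tissue, whereas Fasn was covered at 45.4% or more in each library but the MEFs.

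The largest difference towards MEFs was in Zyx, Thbs1 and Csrp2. Zyx encodes zyxin, an actin-binding protein of focal adhesions, and was covered over 12.4% in ESCs, 65.3% in MEFs, 7.05% in shGFP, 19.04% in brain and 75.5% in liver. In MEFs 5 peaks lay inside the span, from 1415 to 10262 bp past the TSS, and 1 of these overlapped the ESC peak. Thbs1, which encodes the matrix protein thrombospondin 1, had 22.8% in ESCs, 70.4% in MEFs, 7.77% in shGFP, 20.8% in brain and 11.0% in liver. Csrp2, a LIM-domain gene of smooth muscle, had 35.8% in ESCs, 77.0% in MEFs, 18.0% in shGFP, 19.9% in brain and 74.0% in liver. Liver was above MEFs in Zyx, slightly below them in Csrp2 and low in Thbs1, and shGFP was the lowest of the 5 libraries in all 3 genes.

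Hmga2 encodes a chromatin architecture protein of embryonic mesenchyme and was covered over 34.0% in ESCs, 71.0% in MEFs, 20.7% in shGFP, 5.42% in brain and 4.97% in liver. Tgfb2, a TGF-β ligand, had 8.40, 38.4, 6.11, 14.8 and 6.87% in the same order. Basp1, the gene of a membrane-bound signalling protein, had 27.0, 56.9, 19.5, 0 and 1.46%. In these 3 genes MEFs were the highest of the 5 libraries. The ligand gene Efna5 (ephrin-A5) had 3.01% in ESCs, 32.7% in MEFs and 2.56% in shGFP, and the protocadherin gene Pcdh18 had 0, 32.9 and 6.51%.

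The other genes of the 12 were Tshz1, Sema6a, Zfp474 and Spry4. Sema6a, a transmembrane semaphorin gene, had 8.31% in ESCs, 47.0% in MEFs, 5.37% in shGFP, 39.6% in brain and 7.78% in liver. Tshz1, a zinc finger regulator, had 16.2, 56.3, 7.90, 42.7 and 68.8%, and Spry4, an antagonist of FGF signalling, 9.71, 38.9, 0, 24.3 and 60.1%. MEFs were thus the highest library in Sema6a, whereas liver was higher than MEFs in Tshz1 and Spry4. At equal bp covered, Tpm1 (tropomyosin 1), Baalc and Dbh entered the group, and Tpm1 had 29.4% in ESCs, 58.4% in MEFs and 15.3% in shGFP. None of the genes named for the size of their span difference changed direction in any of the alternatives. For genes more covered in MEFs this was fixed with whole lists, equal bp and equal numbers of peaks. Those settings only add MEF peaks or take ESC peaks away.

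**Figure D2:**
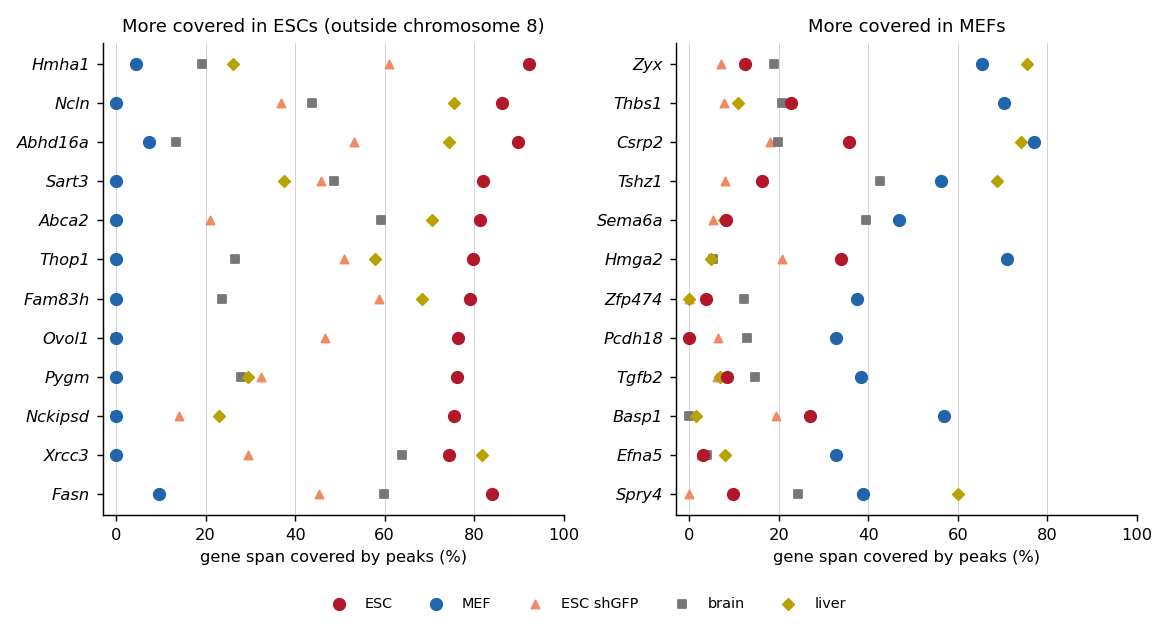
Percent of the gene span under peaks (x axis) in the 5 libraries for the 12 genes more covered in ESCs outside chromosome 8 (left) and the 12 more covered in MEFs (right); each symbol is 1 library. On the left shGFP lies between ESCs and MEFs in each gene, and on the right shGFP lies below ESCs in each gene but Pcdh18, whereas brain and liver fall on either side.

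Over their span, long genes that mark fibroblasts and mesenchyme had the opposite direction to genes at large, with 30 covered more in MEFs, 20 more in ESCs and 2 equally. These are the members of at least 10 kb, 52 of 70 on the list, with matrix, adhesion and contractile genes and mesenchymal transcription factors. Its median coverage was 8.43% in ESCs and 15.8% in MEFs, and its median difference -3.57 points, beside 6.01 over all genes. Calls for MEFs were made in 17 of the 52 (32.7%) and for ESCs in 7 (13.5%), beside 2.36 and 40.7% of all genes. At equal bp covered the calls were 23 for MEFs (44.2%, beside 5.66% of all genes) and 2 for ESCs (3.85%, beside 23.9%). The median difference was then -8.39. In shGFP the 17 genes called for MEFs had a median coverage of 4.57%, beside 3.13% over all genes.

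The shorter members and the start sites were counted as well. Of the 18 members shorter than 10 kb, 9 were covered more in ESCs, 4 more in MEFs and 5 equally. The TSS windows of the 70 members were touched at 39 genes in ESCs (55.7%, beside 31.9% of all windows) and at 26 in MEFs (37.1%, beside 11.99%). Windows called for ESCs numbered 12 (17.1%, beside 7.63%) and those for MEFs 4 (5.71%, beside 0.854%). Col1a1, which encodes a chain of type I collagen, had 1179 bp of its window covered in ESCs, 0 bp in MEFs and 1208 bp in shGFP. The matrix gene Col6a3 had 0, 1213 and 0 bp. At equal bp covered the order of the touched windows turned, with 23 of 70 in ESCs (beside 18.1% of all windows) and 26 in MEFs. The calls for ESCs were then 9 (beside 5.41% of all windows).

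Among its members Prrx1, a homeobox regulator of limb mesenchyme, had 2.06% in ESCs, 25.9% in MEFs and 4.34% in shGFP. Col1a2 and Col1a1, which encode the chains of type I collagen, had 6.28 and 39.2% in ESCs, 20.7 and 51.1% in MEFs, and 4.57 and 16.7% in shGFP. Col3a1 (type III collagen) had no peak in any of these 3 libraries. The opposite direction was seen in Cnn1 (calponin 1; 30.9% in ESCs, 0% in MEFs and 7.88% in shGFP), Col6a1 (29.3, 0.696 and 12.6%) and Fn1 (fibronectin; 47.0, 26.2 and 21.5%). Of the other marker genes, Pdgfra had 25.2% in ESCs and 18.5% in MEFs, Thy1 47.4 and 11.5%, and Twist1 0% in both. Cnn1 had no ESC peak left at equal bp covered and was then at 0% in both cell types. The direction of the long genes was therefore not that of every marker. In the collagen family as a whole (42 genes of at least 10 kb) the median difference was 0, with 12 calls for ESCs (28.6%, beside 40.7% of all genes) and 6 for MEFs (14.3%, beside 2.36%). The balance turned at equal bp covered, with 7 calls for ESCs (16.7%, beside 23.9%), 8 for MEFs (19.05%, beside 5.66%) and a median difference of -1.64 points. Col27a1 (3.89% in ESCs and 22.5% in MEFs) and Col11a2 (60.7 and 6.72%) were its extremes.

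The TGF-β and BMP pathway, in which ligands bind paired receptor kinases that activate Smad proteins, was divided over its long genes. Of its 49 genes of at least 10 kb, 18 were called for ESCs (36.7%, beside 40.7% of all genes) and 8 for MEFs (16.3%, beside 2.36%), with a median difference of 1.30 points. At equal bp covered the calls were 11 (22.4%, beside 23.9%) and 12 (24.5%, beside 5.66%), and the median difference was -1.74. The MEF side held the ligand Tgfb2, already described, and receptors: Tgfbr3 had 7.89% in ESCs, 35.1% in MEFs and 3.14% in shGFP, and Tgfbr2 8.27, 28.8 and 2.25%. It also held the signal transducer Smad3 (31.3, 49.2 and 16.4%). On the ESC side were Ltbp3, which encodes a protein that binds latent TGF-β (76.0, 22.3 and 56.7%), the receptor gene Acvrl1 (72.6, 34.8 and 57.8%) and the ligand gene Tgfb1 (34.8, 0 and 9.73%). Ligands and receptors were thus found on both sides, and the receptor gene Tgfbr1 had no peak in ESCs, MEFs or shGFP. Of the 19 members shorter than 10 kb, however, 14 were covered more in ESCs, 2 more in MEFs and 3 equally. The TSS windows of the 68 members were touched at 31 genes in ESCs (45.6%, beside 31.9% of all windows) and 15 in MEFs (22.1%, beside 11.99%). Windows called for ESCs numbered 10 (14.7%, beside 7.63%) and those for MEFs 0. At equal bp covered 19 windows were touched in ESCs (beside 18.1%) and 7 called (beside 5.41%).

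Notch signalling genes, which encode a receptor cleaved on contact with ligands of neighbouring cells, had a median of 33.6% in ESCs and 9.52% in MEFs over 18 genes. Of these 10 were called for ESCs (55.6%) and 2 for MEFs (11.1%), beside 40.7 and 2.36% of all genes. The calls at equal bp covered were 8 (44.4%) and 6 (33.3%), beside 23.9 and 5.66%. The ligand genes Jag2 (85.9% in ESCs, 26.0% in MEFs and 57.7% in shGFP) and Dll3 (53.4, 0 and 43.3%), the receptor gene Notch4 (55.1, 0 and 23.3%) and the glycosyltransferase gene Mfng (56.4, 0 and 30.2%) were more covered in ESCs. The calls for MEFs were the receptor gene Notch2 (19.7, 39.1 and 7.91%) and Maml3 (12.97, 29.6 and 8.43%), which encodes a coactivator. Receptors of the same family therefore stood on opposite sides, with Notch1 at 42.7% in ESCs and 11.7% in MEFs.

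Genes of epithelial cell junctions lay on the ESC side. The median was 32.8% in ESCs and 6.33% in MEFs over 24 genes, with a difference of 21.6 points, 16 calls for ESCs (66.7%, beside 40.7% of all genes) and 0 for MEFs. The difference was 15.2 points at equal bp covered, with 14 calls for ESCs (58.3%, beside 23.9%) and 0 for MEFs. Tjp3, a tight junction scaffold gene, had 80.9% in ESCs, 11.1% in MEFs and 51.9% in shGFP. Cdh1, which encodes E-cadherin and lies on chromosome 8, had 43.1, 10.9 and 37.9%, and Spint1, a protease inhibitor gene, 49.2, 0 and 27.5%. Epcam, another surface protein of epithelia and ESCs, had 25.3% in ESCs and 16.6% in MEFs, and its direction turned at equal bp covered, with 11.7% in ESCs. The median GC content of the list was 47.3%, and genes of that GC content were often called for ESCs, as given below.

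Pluripotency factors were covered unevenly. Of 22 members of at least 10 kb, 13 were called for ESCs (59.1%, beside 40.7% of all genes) and 1, Spry4, for MEFs. The calls were 6 (27.3%, beside 23.9%) and 1 at equal bp covered. Sall4 had 45.9% in ESCs, 11.8% in MEFs and 45.9% in shGFP, Prdm14 31.7, 0 and 12.6%, and Esrrb 32.2, 3.60 and 19.4%, all of them regulators of pluripotency. Among the other marker genes, Pou5f1, Sox2, Klf4 and Zfp42 had no peak in their span in ESCs, MEFs or shGFP. Nanog had 29.6% in ESCs and 0% in MEFs and shGFP. Dppa4 (13.4% in ESCs), Lin28a (10.3%) and Tdgf1 (8.98%) were at 0% in MEFs, and at equal bp covered Lin28a and Tdgf1 were at 0% in ESCs as well. Of the 21 members shorter than 10 kb, 11 were covered more in ESCs, 7 had no peak in either cell type and 3 were covered more in MEFs. These 3 were Klf2 (39.0% in MEFs), Mycn (32.5%) and Myc (29.2%), all transcription factor genes with 0% in ESCs and shGFP. The TSS window was touched in ESCs at 7 of the 43 annotated members (16.3%) and in MEFs at 2 (4.65%), below the 31.9 and 11.99% of all windows, and at equal bp covered in ESCs at 5 (beside 18.1%).

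Genes of DNA methylation and its removal were covered more in ESCs, as were genes at large. Over 15 genes of at least 10 kb the median was 27.3% in ESCs and 6.98% in MEFs, with 8 calls for ESCs (53.3%, beside 40.7% of all genes) and 0 for MEFs. The calls at equal bp covered were 4 (26.7%, beside 23.9%) and 1. Dnmt1, the maintenance methyltransferase, had 68.4% in ESCs, 8.84% in MEFs and 33.2% in shGFP, and its partner Uhrf1 65.1, 0 and 14.8%. Tet1, which makes 5hmC, had 27.4, 5.82 and 9.40%, Tet2 12.3, 1.66 and 0%, and Tet3 27.3, 18.8 and 12.6%. The difference in Tet3 was 8.51 points, and at equal bp covered it was -0.952, with 17.8% in ESCs, whereas Tet1 and Tet2 stayed on the ESC side (9.20 and 5.57 points).

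Lists of developmental regulators differed in their balance. The clustered Hox genes, which set position along the body axis, had peaks in 22 of 39 spans in ESCs and in 1 in MEFs. Of the 34 shorter than 10 kb, 17 were covered more in ESCs, 0 more in MEFs and 17 equally. In MEFs no TSS window of the 39 Hox genes was touched by a peak and, of the 5 of at least 10 kb, Hoxa3 alone had any coverage (1.20%). In ESCs 19 windows (48.7%, beside 31.9% of all windows) were touched, and at equal bp covered 15 (beside 18.1%). All 5 long genes were called for ESCs (beside 40.7% of all genes), and 3 of them at equal bp covered (beside 23.9%). They include Hoxa3 (36.1% in ESCs and 41.0% in shGFP), Hoxd3 (34.3 and 37.3%) and Hoxb3 (24.3 and 32.4%). Hoxd12 had all 2000 bp of its TSS window covered in ESCs and in shGFP, and 0 bp in MEFs. Hox genes lie next to each other, so that neighbours can share a peak. Homeobox and paired regulators outside the clusters had 29 calls for ESCs (60.4%, beside 40.7% of all genes) and 1 for MEFs over 48 genes, and at equal bp covered 17 (35.4%, beside 23.9%) and 2. Their TSS windows were touched at 35 of 116 genes in ESCs (30.2%, beside 31.9% of all windows) and 1 in MEFs (0.862%, beside 11.99%). At equal bp covered they were touched at 17 in ESCs (beside 18.1%). In shGFP, whose peaks covered 82.3 Mb against 179 Mb in ESCs, 40 of these windows were touched. The count was thus higher than the 35 of ESCs although the shGFP list covered less. The share of all windows touched in shGFP is not given here, so the 40 windows have no background beside them.

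Forkhead factors had 11 calls for ESCs (61.1%, beside 40.7% of all genes) and 0 for MEFs over 18 genes, and at equal bp covered 7 (38.9%, beside 23.9%) and 2 (11.1%, beside 5.66%), with Foxn4 (69.3% in ESCs and 4.73% in MEFs) the widest apart. Gata and T-box factors had 6 calls for ESCs (37.5%, below the 40.7% of all genes) and 0 for MEFs over 16, and at equal bp covered 5 (31.2%, beside 23.9%) and 0. Gata2 had 46.9% in ESCs and 0% in MEFs. Of 23 Gata and T-box genes 12 had a touched TSS window in ESCs (52.2%, beside 31.9% of all windows) and 0 in MEFs, and at equal bp covered 9 in ESCs (beside 18.1%). Of basic helix-loop-helix factors only 9 of 57 are 10 kb or longer, and of these 3 were covered more in ESCs and 5 more in MEFs, with a median difference of -0.380 points. They had 2 calls for either side (22.2%, beside 40.7 and 2.36% of all genes), and at equal bp covered 2 for ESCs (22.2%, beside 23.9%) and 4 for MEFs (44.4%, beside 5.66%). Of the 48 shorter members, however, 24 were covered more in ESCs, 5 more in MEFs and 19 equally. The 4 Sox genes of at least 10 kb had a median difference of -1.03 points, with 1 of the 4 called for ESCs (beside 40.7% of all genes and 23.9% at equal bp covered) and 0 for MEFs in both settings. Of the 14 shorter ones 6 were covered more in ESCs, 1 more in MEFs and 7 equally. The TSS windows of helix-loop-helix and Sox factors were touched in ESCs at 29 of 57 (50.9%) and 8 of 18 genes (44.4%), beside 31.9% of all windows, and at equal bp covered at 24 and 6, beside 18.1%. In MEFs they were touched at 7 (12.3%) and 1 (5.56%), beside 11.99%.

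**Figure D3:**
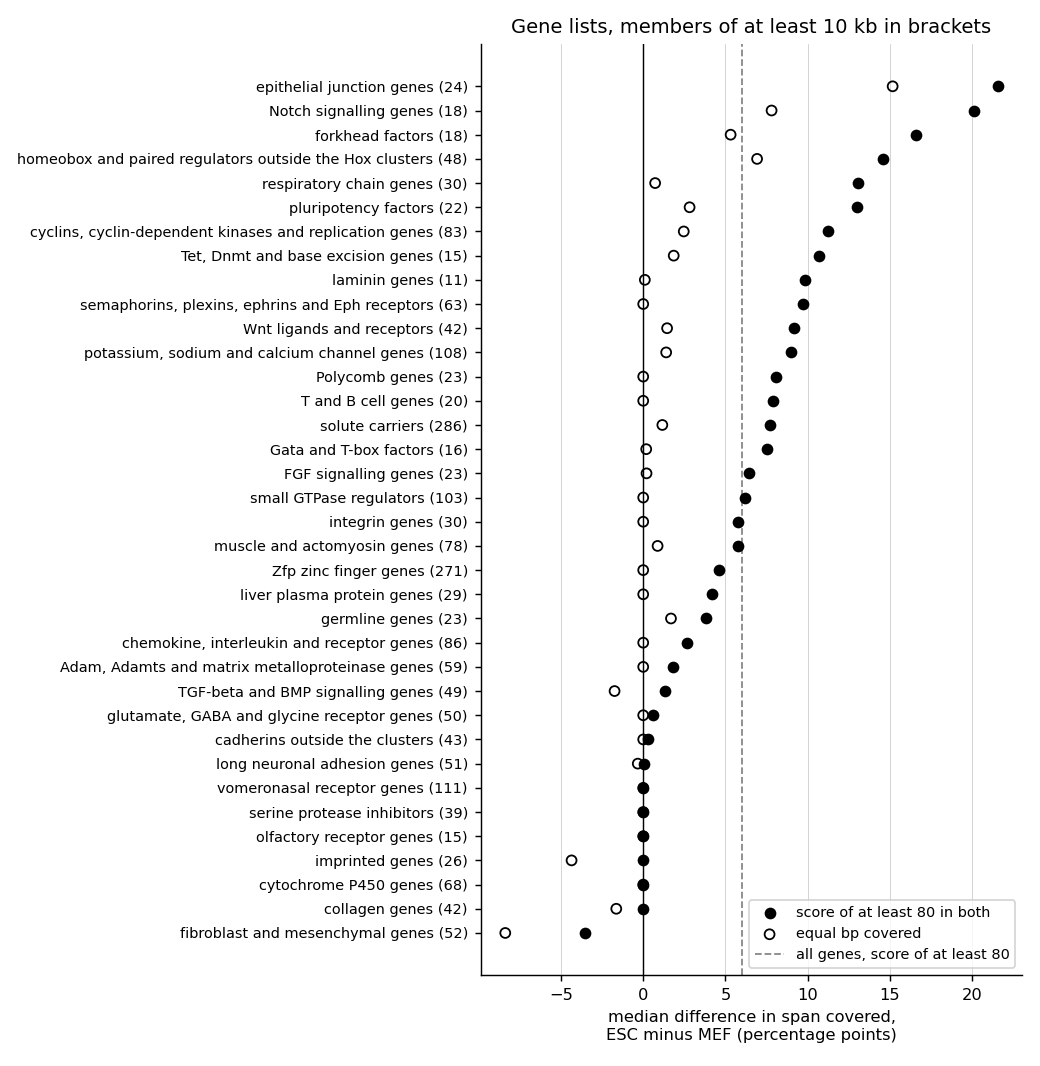
Median difference in the percent of the gene span under peaks, ESC minus MEF, in percentage points (x axis), for gene lists with at least 10 members of 10 kb or more; filled points take scores of at least 80 in both libraries, open points equal bp covered, and the dashed line is the median of all genes. Fibroblast and mesenchymal genes are lowest in both settings (-3.57 and -8.39) and epithelial junction genes highest (21.6 and 15.2).

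Other lists are described by their counts of calls for ESCs and MEFs, beside 40.7 and 2.36% of all genes, and at equal bp covered beside 23.9 and 5.66%. Muscle and actomyosin genes had 34 (43.6%) and 4 (5.13%) over 78 genes, and 21 (26.9%) and 11 (14.1%) at equal bp covered, with Tpm1 and Flnc (66.2% in ESCs and 2.44% in MEFs) at the ends. Wnt ligands and receptors had 19 (45.2%) and 4 (9.52%) over 42 genes, and 11 (26.2%) and 8 (19.05%) at equal bp covered, from Wnt16 (6.87% in ESCs and 33.0% in MEFs) to Dvl2 (80.9 and 9.98%). In both lists the ESC share was thus near that of all genes, while the MEF share was above it. Semaphorins, plexins, ephrins and Eph receptors had 31 (49.2%) and 3 (4.76%) over 63, and 26 (41.3%) and 8 (12.7%) at equal bp covered, and Sema3b (89.1 and 15.3%) was at the other end from Sema6a. Cell cycle and replication genes had 42 (50.6%) and 0 over 83, and 27 (32.5%) and 2 at equal bp covered. Polycomb genes had 11 (47.8%) and 0 over 23, and 5 (21.7%) and 1 at equal bp covered. Respiratory chain genes had 16 (53.3%) and 0 over 30, and 7 (23.3%) and 0 at equal bp covered. The shares of Polycomb and respiratory chain genes called for ESCs were therefore close to that of all genes in the latter setting. In long neuronal adhesion genes, of a median span of 852 kb, the median was 0.680% in ESCs and 0.840% in MEFs over 51 genes. Of these 27 were covered more in ESCs, 20 more in MEFs and 4 equally, with a median difference of 0.073 points (-0.331 at equal bp covered). They had 4 calls (7.84%) for ESCs and 0 for MEFs, and 3 (5.88%) and 2 (3.92%) at equal bp covered. Olfactory receptor, vomeronasal receptor and cytochrome P450 genes had medians of 0% in both cell types, over 15, 111 and 68 genes. The receptor lists had 0 calls for either side, over 15 of 1087 olfactory and 111 of 322 vomeronasal receptor genes. Of the 1072 shorter olfactory receptor genes 39 were covered more in ESCs, 2 more in MEFs and 1031 equally. The 211 shorter vomeronasal receptor genes had 1, 0 and 210. TSS windows of olfactory receptor genes had 16 calls for ESCs (1.47%, beside 7.63% of all windows) and 0 for MEFs. Cytochrome P450 genes had 11 (16.2%) and 0, and 4 (5.88%) and 0 at equal bp covered, with 32 genes covered more in ESCs and 2 more in MEFs in the main setting. Imprinted genes, over 26 genes, had a median difference of 0, with 5 calls for ESCs (19.2%) and 1 for MEFs, Igf2r (16.9% in ESCs, 32.8% in MEFs and 4.22% in shGFP). The balance turned at equal bp covered, with 2 calls for ESCs (7.69%), 6 for MEFs (23.1%) and a median difference of -4.36 points.

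At promoters the comparison was made over 2000 bp, from 1 kb before to 1 kb after the TSS, of all 22367 protein-coding genes. At least 1 bp lay under a peak in 7139 windows in ESCs (31.9%, exact 95% interval 31.3 to 32.5%, counting error only) and in 2681 in MEFs (11.99%, 11.6 to 12.4%). With both lists whole, and so with MEF peaks of lower scores, the share in MEFs was 30.1%, near that in ESCs. Both cell types touched 1768 windows, ESCs alone 5371 and MEFs alone 913. This was 65.9% of the MEF windows and 24.8% of the ESC windows. Windows covered over at least 1000 bp more in ESCs numbered 1706 (7.63%), and over at least 1000 bp more in MEFs 191 (0.854%). At equal bp covered they were 1210 (5.41%) and 298 (1.33%), with 4051 windows touched in ESCs (18.1%).

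Promoters were classed by CpG density and GC content into low (LCP), intermediate (ICP) and high (HCP) CpG promoters. ESCs touched 30.4% of 9137 LCP, 41.1% of 5573 ICP and 27.1% of 7657 HCP windows, and MEFs 10.2, 13.7 and 12.9%. The calls for ESCs were 2.31% of HCP, 10.5% of LCP and 10.2% of ICP windows, and those for MEFs 0.17, 1.36 and 0.969%. At the TSS itself 18.8% of LCP, 13.9% of ICP and 1.74% of HCP start sites lay under an ESC peak, and 5.53, 3.46 and 0.379% under a MEF peak. Both cell types thus had few peaks over CpG-rich start sites, and peaks that touched HCP windows lay mostly to the sides of the TSS.

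Germline genes, many of which are silenced by DNA methylation in somatic cells, differed at the start site more than over the span. Over 23 genes of at least 10 kb there were 2 calls for ESCs by span (8.70%, beside 40.7% of all genes, and at equal bp covered also 2, beside 23.9%) and 0 for MEFs (1 at equal bp covered), with a median of 4.92% in ESCs and 0% in MEFs. Of the 33 TSS windows, however, 30 were touched in ESCs, 7 in MEFs and 26 in shGFP, and 23 were called for ESCs (69.7%, beside 7.63% of all windows) and 1, Zp3, for MEFs. At equal bp covered 27 were touched (beside 18.1% of all windows) and 22 called in ESCs (beside 5.41%). Ddx4, an RNA helicase gene of germ cells, had 1805 of 2000 bp covered in ESCs, 0 bp in MEFs and 1602 bp in shGFP. Sycp3, of the synaptonemal complex, had 1507, 0 and 1618 bp, and Dazl, an RNA-binding protein gene, 1464, 141 and 1655 bp. Figla, an oocyte factor gene, had 1936, 0 and 1832 bp. Zp3, a gene of the egg coat, had 0 bp in ESCs, 1189 bp in MEFs and 1442 bp in shGFP.

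The hexamer CACGTG, the same on both strands and the E-box read by Max and Mga, was found in the 200 bp before the TSS of 15 of these 33 genes (45.5%), beside 5.58% of all 22367 genes. Among the windows called for ESCs it was in 7.74% and among those called for MEFs in 5.24%. The Ddx4 stretch printed above holds it at 1 position and the Sycp3 stretch at 2. Such a match describes the letters and not binding, and the list had been chosen with results of these data known.

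In 64 windows all 2000 bp were covered in ESCs and 0 bp in MEFs, and 11 of these belonged to genes that also had 100% of their span covered in ESCs. By the larger difference over the span, then by symbol, the genes named among them were Fitm1 (lipid storage), Hist1h2ba (a histone of testis), Insl3 (a peptide hormone of the testis), Klhdc7b, Msgn1 (a regulator of presomitic mesoderm) and Nrn1l. In shGFP their coverage was between 1225 bp in Msgn1 and 2000 bp in Hist1h2ba. Each of these 6 genes is shorter than 2000 bp, and Insl3 lies inside the span of Jak3. Towards MEFs the largest were Ankrd1, an ankyrin-repeat gene induced by mechanical load, Adam12, a metalloprotease gene of mesenchyme, and Gbp5, an interferon-induced GTPase gene. Each had 0 bp in ESCs, 2000 bp in MEFs and 0 bp in shGFP. They were followed by Csrnp1 (49, 1987 and 0 bp in ESCs, MEFs and shGFP), Btbd19 (164, 2000 and 491 bp) and Spag17 (0, 1786 and 968 bp). Over its span of 349 kb, Adam12 was covered at 2.96% in ESCs and 13.5% in MEFs, by 12 and 39 peaks.

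The shape of coverage along genes differed between the cell types as well. Spans were divided into 20 equal parts from the TSS. Over all genes the mean coverage in ESCs went from 12.7% in the first part to 23.6% in the last, and in MEFs from 5.79 to 6.39%, with a maximum of 7.10% in part 2 and a minimum of 5.23% in part 18. Genes called for ESCs had 20.2% in the first part and 43.5% in the last. Genes called for MEFs had their maximum in MEFs, 34.2%, in part 4, with 23.3% in the first part and 23.9% in the last. ESC coverage was thus highest at the ends of genes, whereas MEF coverage had its maximum in the early parts.

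In bp, ESC peaks covered 26.5% of exons and 10.3% of introns, a ratio of 2.56, and MEF peaks 6.72 and 6.03%, a ratio of 1.11. The shGFP library covered 13.4 and 4.42%, a ratio of 3.03. ESC peaks that lay in genes and met no MEF peak (81488) had a median GC content of 49.1% and 16.9 CpGs per kb, whereas MEF peaks in genes that met no ESC peak (18134) had 44.6% and 13.1. The MEF peaks in genes that met an ESC peak (25007) had 48.6% and 17.5, close to the ESC peaks.

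**Figure D4:**
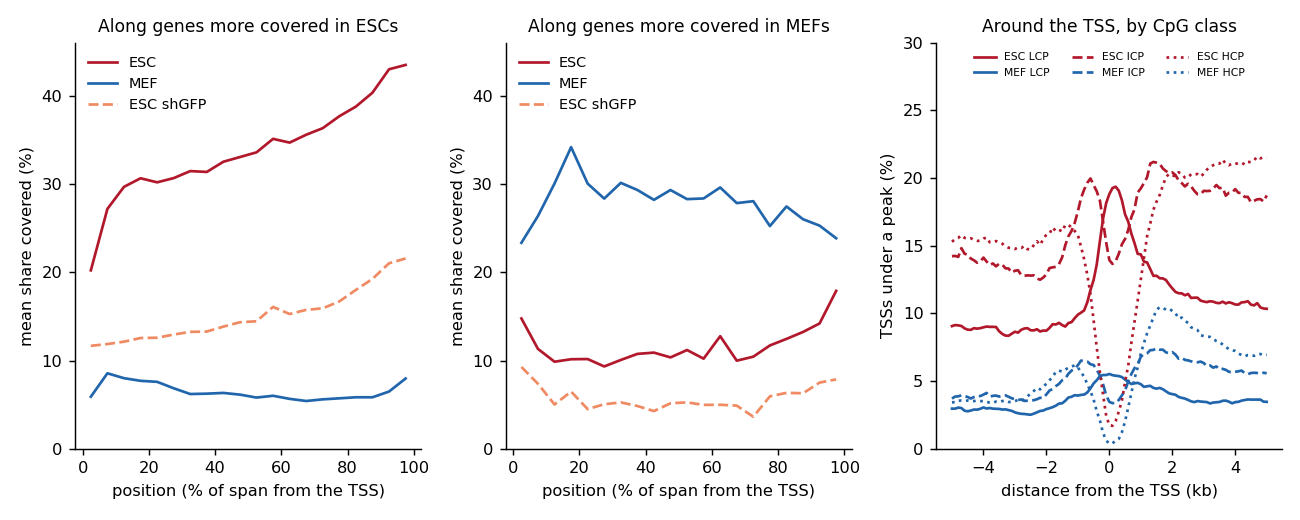
Mean percent of the span covered along genes called for ESCs (left) and for MEFs (middle), from the TSS to the end of the gene in 20 parts, and percent of TSSs with a peak at each distance in kb, by CpG class (right). Coverage in ESCs climbs towards the gene end (20.2 to 43.5% in the genes called for ESCs), and the HCP curves fall to 1.74% (ESC) and 0.379% (MEF) at the TSS.

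Peaks found in MEFs and not in ESCs also differed in short sequence motifs. The central 200 bp of each peak in a gene were searched on both strands. TGANTCA, the motif of AP-1 (Fos and Jun), was in 15.0% of 18134 peaks of MEFs alone, 10.3% of 25007 MEF peaks shared with ESCs, 8.02% of 27237 ESC peaks shared with MEFs and 4.98% of 81488 peaks of ESCs alone. Over all 151866 windows the share was 7.59%. The same letters read backwards, ACTNAGT, were in 5.98% of the peaks of MEFs alone and 4.94% of those of ESCs alone. GGAATG, the core motif of the TEAD factors, was in 14.9% of the peaks of MEFs alone and 10.6% of those of ESCs alone (backwards, GTAAGG, 6.75 and 7.90%), and in 11.8% of all windows. TCAAGGTCA, the motif of Esrrb, was in 0.342% of the peaks of MEFs alone and 0.812% of those of ESCs alone (backwards, ACTGGAACT, 0.226 and 0.233%), and in 0.645% of all windows. ATGCAAAT, the octamer motif, did not share that direction. It was in 0.976% of the peaks of MEFs alone and 0.860% of those of ESCs alone (backwards, TAAACGTA, 0.281 and 0.163%), and in 0.882% of all windows. The windows of MEFs alone had a median GC content of 45.5% and those of ESCs alone 52.0%, and the part of base composition was not tested beyond the reversed letters. The Csrp2 stretch printed above holds TGANTCA at 1 position, and GGAATG is at 1 position in the Ankrd1 stretch and also at 1 in the Ncln stretch, the centre of a peak of ESCs alone.

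Positions that the cell types shared made up 41.7 Mb, which is 23.3% of the bp under ESC peaks and 40.8% of those under MEF peaks. Of the ESC peaks 42562 (24.8%) met a MEF peak, and of the MEF peaks 39375 (53.2%) met an ESC peak. The shGFP library, which neither choice had used, met 33.4% of the peaks of ESCs alone and 3.79% of those of MEFs alone. It met 51.1% of the shared ESC peaks and 53.0% of the shared MEF peaks. Peaks of MEFs alone were therefore seldom found in the other ESC library, while most peaks of ESCs alone were not found there either at this score. ESCs and shGFP are the same line, and the shGFP list covered 82.3 Mb.

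GC content, length and chromosome moved with the calls. In 5 equal groups of genes, from the lowest to the highest GC content, calls for ESCs were made in 2.22, 15.6, 36.9, 62.7 and 85.9% of genes, and those for MEFs 0.629, 2.96, 4.11, 2.96 and 1.15%. Median coverage went from 0.305 to 40.7% in ESCs and from 0 to 6.997% in MEFs. Genes called for ESCs had a median GC content of 48.4% and a median span of 25.2 kb, and genes called for MEFs 44.4% and 65.4 kb. Of genes of 10 to 20 kb 55.9% were called for ESCs and 1.90% for MEFs, and of genes of at least 200 kb 6.18 and 6.08%. Short, GC-rich genes were thus mostly on the ESC side. The part of GC content and length in the differences was not tested.

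Chromosome 8 stood apart. Its 679 genes had a median coverage of 32.7% in ESCs, 1.91% in MEFs and 13.3% in shGFP, and 73.3% of them were called for ESCs and 0.147% for MEFs. The chromosome holds 5.03% of the genes and 9.06% of the calls for ESCs. ESC peaks covered 14.5% of its bp, against 6.75% of the genome, and shGFP peaks 7.19%, against 3.10%, whereas MEF peaks covered 5.14%, against 3.85%. Chromosome 11 came next, with 57.2% of genes called for ESCs. The copy number of chromosomes in the cells was not measured, and its part in these values was not tested. Without chromosome 8 the median difference was 5.47 points, with 38.9% of genes called for ESCs and 2.48% for MEFs. On the X chromosome the median was 0% in both, and 0.945% of 529 genes were called for ESCs. The highest share called for MEFs was on chromosome 18 (5.60%), which holds Tshz1, Sema6a, Zfp474 and Spry4.

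**Figure D5:**
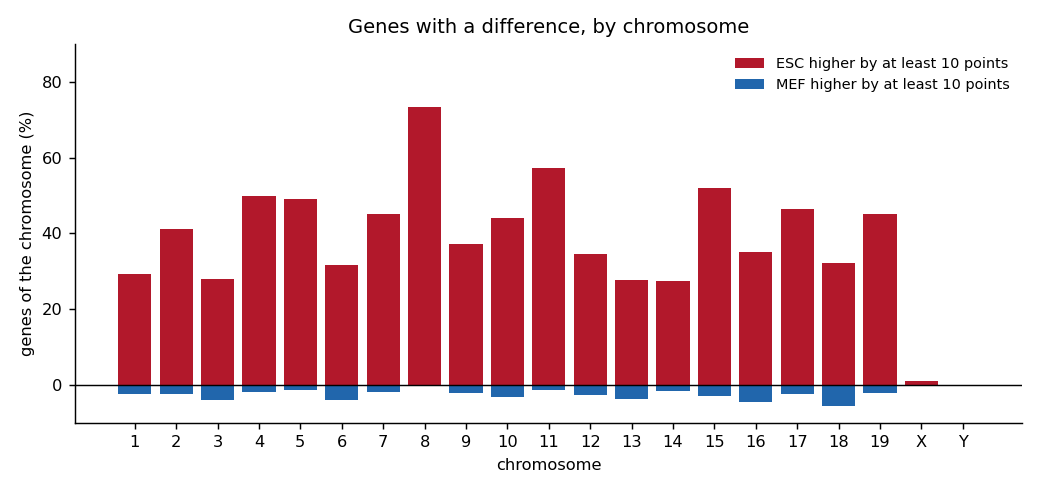
Percent of the genes of each chromosome (x axis) that were covered over at least 10 points more in ESCs (red, upwards) or in MEFs (blue, downwards); both directions are counted from 0. Chromosome 8 reaches 73.3% and chromosome 11 57.2% towards ESCs, and the X chromosome 0.945%.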

How the data were processed

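Per the labels and methods, the authors mapped GLIB-Seq reads (5hmC glucosylated, oxidised and biotinylated before capture) to mm9 with Bowtie 0.12.7, kept unique hits with up to 2 mismatches, then collapsed duplicate reads and ran MACS 1.4.1 library by library; the labels also name CASAVA 1.8. The deposited values are peak positions and a score for each peak. Read counts are not part of the lists, so depth is unknown, and neither the threshold nor the control of the lists is given in the sources used here. The shSuz12 5hmC and RNA-Seq libraries were not used here.

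Mitochondrial peaks were left out. Genes were those of GENCODE mouse release 1 (Ensembl 65) on the same assembly, and repeated symbols in a list were counted by their longest entry. Coverage was computed with Python 3.11.15, numpy 2.4.6, pandas 2.3.3 and scipy 1.17.1, plotted with matplotlib 3.10.9 and checked on simulated peaks. CpG classes took the highest CpG ratio in windows of 500 bp from -700 to 200 bp of the TSS: HCP above 0.75 with at least 55% GC, LCP below 0.48. Named are the 12 genes of each direction by span (ties by symbol), the 6 by TSS window (ties by span difference, then by symbol), and of each gene list the widest apart and central members. A few further list members, Ddx4 and Sycp3 as printed sequences, and the motifs were chosen after values had been seen. Clone-type symbols were skipped for names. The libraries, the lists and the rule were chosen with earlier results of these data known. Some genes and regions are not reported here. The alternatives were whole lists, a score of at least 120, equal bp covered, equal numbers of peaks, leaving out chromosome 8, other TSS windows, other minimum spans and other call thresholds.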

Additional observations from a re-analysis of the deposited data

How the results depend on the processing

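With 1 library a side no spread between replicates is known, sequencing depth is unknown, and lists called at different thresholds can hold peaks of different width, so the counts depend on how the lists are matched. No paired analysis was possible because each cell type has 1 library. Of 53 summary values under the alternatives (calls by span and by window, the median difference over all genes and the windows touched, but neither the bp covered nor the gene lists, some of which turned as given above) 17 stayed within the limits set, 36 moved and 0 changed direction, and of 204 values of the 51 genes named by the size of their difference 157 stayed within 10 points, 47 moved with their direction kept and 0 changed direction. Genes on the MEF side could not turn with whole lists, equal bp or equal numbers of peaks, which only add MEF peaks or take ESC peaks away. Below, genes are calls by span, and windows are calls or touched windows at the TSS. With whole lists the bp covered turned to the MEF side, a ratio of ESC to MEF of 0.862. Whole lists gave 1252 genes for MEFs, a median difference of 1.14 points, 358 windows called for MEFs and 30.1% of windows touched in MEFs. A score of at least 120 gave 205 genes for MEFs, a median of 5.00 and 26.5% (ESCs) and 6.72% (MEFs) of windows touched. Equal bp covered gave 3231 genes for ESCs, 764 for MEFs, a median of 0, 298 windows called for MEFs and 18.1% touched in ESCs. Equal numbers of peaks gave 3353, 719, 0, 288 and 19.04%, in the same order. Without chromosome 8 the median was 5.47 and 30.8% of windows were touched in ESCs. Windows of 500 bp each way from the TSS gave 22.4% (ESCs) and 7.43% (MEFs) of windows touched, and those of 2 kb 44.9 and 18.0%, with 1042 and 65 windows called. Genes of any length gave 8729 calls for ESCs, 612 for MEFs and a median of 3.70, and genes of at least 50 kb 1142, 186 and 1.86. A call at 20 points gave 3294 and 69 genes, and at 25 points of the TSS window 4151 and 648 windows.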

Other observations

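Gene families were also grouped by the leading letters of their symbols, with at least 10 members of 10 kb or more. Of 165 such families the highest median differences, ESC minus MEF, were in the tubulin ligase-like Ttll genes (32.8 points over 12 genes, 8 called for ESCs, 66.7%, and 0 for MEFs), the RNA polymerase subunit genes Polr (31.3 points over 16, 14, 87.5%, and 0), the semaphorins Sema (27.5 points over 19, 12, 63.2%, and 1), the guanine nucleotide exchange factors Arhgef (23.8 points over 21, 13, 61.9%, and 0) and the lipoprotein receptor-related Lrp genes (21.9 points over 11, 8, 72.7%, and 0). These shares of called genes stand beside 40.7% for ESCs and 2.36% for MEFs of all genes. The medians of these 5 families were 20.1, 14.9, 14.5, 14.9 and 11.5 points at equal bp covered. The lowest were in the tetraspanins Tspan (-0.988 points over 16) and the protocadherins named Pcdh and a number (-0.150 over 10). Their calls for ESCs and MEFs were 4 and 2 of 16, and 2 and 1 of 10, beside 40.7 and 2.36% of all genes. At equal bp covered Tspan had a median of -6.75 points, with 1 call for ESCs (6.25%, beside 23.9% of all genes) and 6 for MEFs (37.5%, beside 5.66%). The clustered protocadherins are not in the Pcdh group. Over 2 of them of at least 10 kb the median difference was 16.9 points. Of the 22 shorter ones 20 were covered more in ESCs, 0 more in MEFs and 2 equally. Laminin genes, which encode chains of the basement membrane, had 5 calls for ESCs (45.5%, near the share of all genes) and 0 for MEFs over 11 genes, and 3 (27.3%, beside 23.9% of all genes) and 1 at equal bp covered, with Lamb2 at 90.9% in ESCs, 22.9% in MEFs and 81.2% in shGFP.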
